A study of Mus musculus with 4 samples.

Results

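Macrophages show antigen to T cells and at the same time display surface proteins that encourage or restrain the T cell. This account covers 10 mouse genes of that display, called the costimulation and checkpoint genes here: Icosl, Cd80, Cd86, Cd274, Pdcd1lg2, Cd276, Tnfsf4, Tnfsf9, Cd40 and Havcr2. They were taken by name from the 19938 genes with a probe of exactly 1 gene, and all 10 were measured. The list was chosen by function and by a measured value, since Icosl had already been seen among the lowest genes in palmitic acid minus control. The values of that contrast, and of others that use the palmitic acid array, are therefore a description and support nothing further.

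The samples were peritoneal macrophages of wild-type C57BL/6 mice aged 8 to 12 weeks, collected 3 days after an injection of 1 mL of 4% thioglycolic acid into the peritoneum. Cells still attached 3 h after plating were cultured for 6 h. The control is labelled as bovine serum albumin (BSA) only, whereas the treatment protocol describes its vehicle as ethanol and KOH. The other groups received BSA complexed with 500 µM of a fatty acid: palmitic acid (C16:0, saturated), oleic acid (C18:1, monounsaturated) or linoleic acid (C18:2, polyunsaturated). RNA from 3 samples was pooled in each group and hybridised to 1 Affymetrix array, so there are 4 arrays, no replicates, and no error or test for any difference below. Whether the pooled samples came from separate mice is not stated in the labels. Values are log2 units made by RMA, which brings arrays to a common scale and merges the probes of a set into a single log2 value. A log2 difference of 0.585 is a 1.5-fold difference, the size used for counting.

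T cells need a signal through the antigen receptor and a further one through costimulatory receptors. CD80 and CD86 belong to the B7 family and bind CD28, which stimulates the T cell, and CTLA-4, which restrains it. ICOSL, also of the B7 family, binds ICOS, a receptor that appears on activated T cells and helps follicular helper T cells. PD-L1 (gene Cd274) and PD-L2 (Pdcd1lg2) bind the inhibitory receptor PD-1, and B7-H3 (Cd276) is a B7 relative whose receptor is not settled. OX40L (Tnfsf4) and 4-1BBL (Tnfsf9) are TNF superfamily ligands that sustain activated T cells. CD40 receives the CD40 ligand signal of helper T cells, and TIM-3 (Havcr2) is an inhibitory receptor found on exhausted T cells and on myeloid cells.

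Of the 10 genes, 5 ranged by 1.5-fold or more across the 4 arrays: Icosl, Cd80, Cd86, Tnfsf4 and Havcr2. Havcr2 had the narrowest range of the 5, 0.63, which 4.96% of the 11174 genes kept for counting (defined below) exceeded. The ranges include the palmitic acid array that the choice of genes used, so nothing is read from this count. For 3 of these 5 genes RefSeq (GRCm38.p6) gave a promoter window, from 250 bases before to 50 bases after a transcript start. The windows are printed to show the sequence at genes that varied. Of all 10 genes, 6 had a window in the table, 1 each, and other start sites were not examined. Capitals mark matches, on either strand, to an NF-kB type site (GGG and CC with any 5 bases between), TGANTCA (AP-1), an interferon response element (GAAA, any 2 bases, GAAA), TTCNNNGAA (a STAT site), GGGCGG (a GC box) and TATAAA.
Icosl, chr10:78069118-78069417, + strand: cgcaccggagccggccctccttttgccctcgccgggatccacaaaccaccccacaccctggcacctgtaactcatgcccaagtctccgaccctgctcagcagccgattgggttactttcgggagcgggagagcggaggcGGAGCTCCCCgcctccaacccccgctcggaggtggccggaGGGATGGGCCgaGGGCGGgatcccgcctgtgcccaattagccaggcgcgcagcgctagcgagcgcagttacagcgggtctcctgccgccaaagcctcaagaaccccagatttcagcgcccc
Cd80, chr16:38458683-38458982, + strand: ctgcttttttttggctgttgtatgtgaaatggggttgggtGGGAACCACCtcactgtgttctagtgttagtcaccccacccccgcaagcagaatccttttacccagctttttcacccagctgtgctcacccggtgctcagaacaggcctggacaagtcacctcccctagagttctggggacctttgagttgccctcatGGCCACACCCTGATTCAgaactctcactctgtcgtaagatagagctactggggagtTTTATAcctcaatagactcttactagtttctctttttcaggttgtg
Havcr2, chr11:46454681-46454980, + strand: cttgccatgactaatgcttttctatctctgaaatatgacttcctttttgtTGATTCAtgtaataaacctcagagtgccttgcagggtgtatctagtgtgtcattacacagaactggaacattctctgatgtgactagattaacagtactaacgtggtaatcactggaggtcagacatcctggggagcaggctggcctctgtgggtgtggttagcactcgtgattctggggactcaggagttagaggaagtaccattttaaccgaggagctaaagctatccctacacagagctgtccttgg
The Icosl window held 2 NF-kB type matches and 1 GC box, and 68.0% of its bases were G or C. The Cd80 window held 2 NF-kB type matches, 1 TGANTCA match directly beside the second of them, and 1 TATAAA match. The TATAAA match lay after the transcript start and on the opposite strand, and 49.7% of the window's bases were G or C. The Havcr2 window held 1 TGANTCA match, with 45.3% G or C. Among all 32851 windows, 50.8% held the NF-kB type site, 35.7% GGGCGG, 13.6% TATAAA, 8.3% TTCNNNGAA, 7.81% TGANTCA and 3.44% the interferon element, and the median G or C content was 52.7%. A match describes letters only and does not show that a factor binds there.

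The control array gave the values of the genes without fatty acid. A gene was kept for counting when the highest of its 4 values reached the median of all probe values, log2 7.09, which 11174 genes did. That level is a matter of brightness, and a gene under it may still be expressed. Of the 10 genes 9 were kept, and Pdcd1lg2 was not, with values of 6.04 in the control, 6.05 with palmitic, 6.12 with oleic and 6.17 with linoleic acid. Cd40 and Cd274 had control values of 13.47 and 13.09 on arrays whose highest probe value lay between 14.37 and 14.44. Probes differ in their response, so these levels do not rank the genes against each other. Each gene is compared below with itself across the arrays, as in the plot of values by array.

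**Figure D1:**
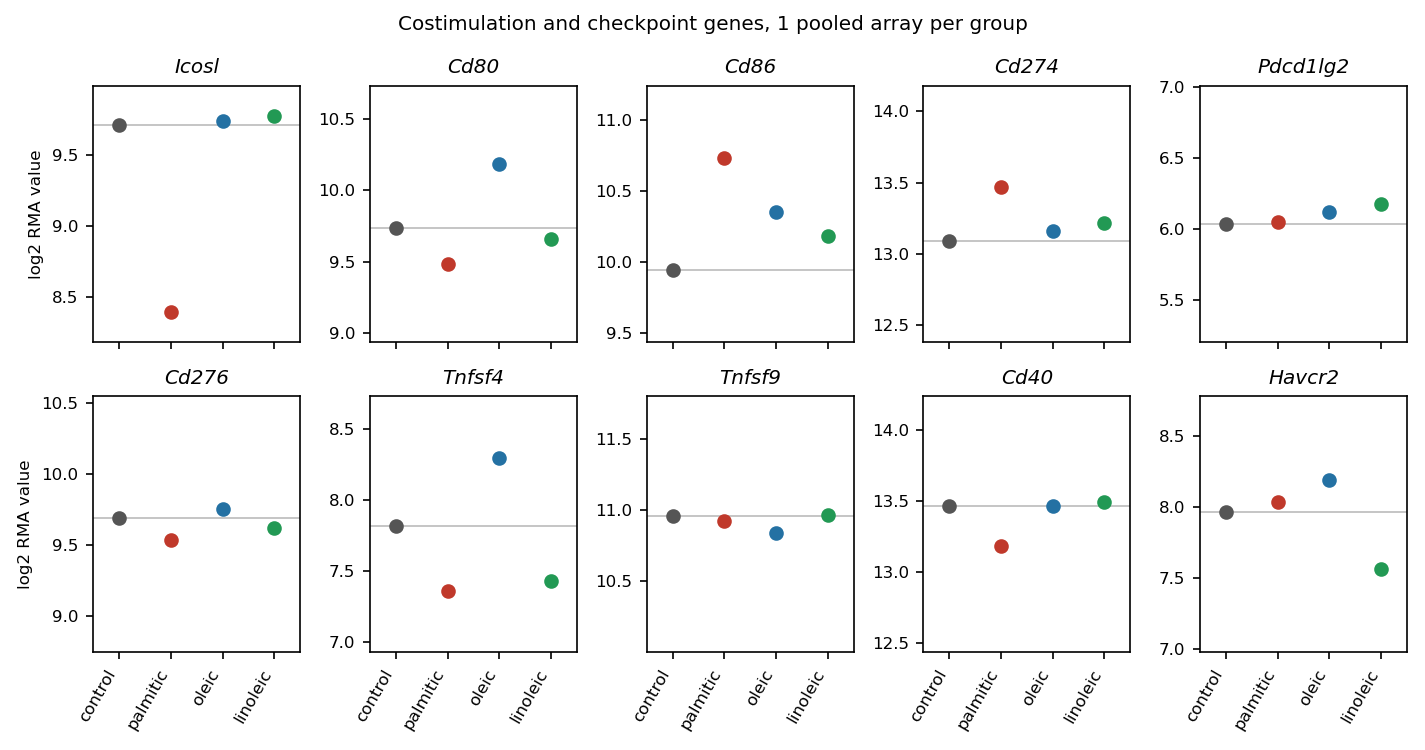
Log2 RMA value of each of the 10 genes (vertical axis, every panel spans the same width of values) in the control, palmitic acid, oleic acid and linoleic acid arrays (horizontal axis); each point is 1 pooled array and the grey line is the control value. Icosl is low in the palmitic acid array alone, Cd86 is lowest in the control, and Tnfsf4 is high with oleic acid.

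Icosl had the widest range of the 10 genes. Its log2 value was 9.71 in the control, 8.39 with palmitic, 9.74 with oleic and 9.77 with linoleic acid. The palmitic acid value stood alone, and the other 3 differed by at most 0.06. Against the control the palmitic acid difference was -1.32, or 2.49-fold lower, and 4 of the 11174 kept genes had a lower one. The differences were 0.03 with oleic acid and 0.06 with linoleic acid. Palmitic acid lay below oleic acid by a difference of -1.35 (2.54-fold) and below linoleic acid by -1.38 (2.60-fold), comparisons that use the same palmitic acid array. Oleic minus linoleic acid was -0.04, and this sign turned when arrays were centred on their medians (0.02) or the quantile normalisation was repeated (0.02). At least 2-fold lower with palmitic acid than in each of the other 3 arrays were 15 kept genes, or 0.134%, and Icosl was the only one of the 9 kept costimulation and checkpoint genes among them.

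The scatter of genes of like brightness gives a scale for such differences in the absence of replicates. Among the 500 kept genes nearest to Icosl in mean value, the robust SD (the scaled median absolute deviation) was 0.20 for palmitic acid minus control, 0.12 for oleic acid minus control and 0.12 for linoleic acid minus control. That scatter holds both noise and real change and is no replicate error.

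Cd80 and Cd86, ligands of the same receptors, were ordered differently across the arrays. Cd80 had values of 9.74 in the control, 9.48 with palmitic, 10.19 with oleic and 9.66 with linoleic acid. It was highest with oleic acid and lowest with palmitic acid, with differences from the control of 0.45, -0.26 and -0.08 for oleic, palmitic and linoleic acid. Palmitic minus oleic acid was -0.70 (1.63-fold), palmitic minus linoleic acid -0.18 and oleic minus linoleic acid 0.53 (1.44-fold). Cd80 is the average of 2 probes that differed in size. Palmitic minus oleic acid was -0.50 at the brighter probe, short of 1.5-fold, and -0.91 at the other. Oleic acid minus control was 0.32 and 0.58 at these probes. The robust SD of palmitic minus oleic acid among the 500 genes of like brightness was 0.24.

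Cd86 was lowest in the control and higher with each fatty acid. Its values were 9.94 in the control, 10.73 with palmitic, 10.35 with oleic and 10.18 with linoleic acid. The differences from the control were 0.79 (1.72-fold), 0.41 (1.33-fold) and 0.23 (1.18-fold). They share the control array, so a low control value would enter all 3. Palmitic acid lay above oleic acid by 0.38 and above linoleic acid by 0.55, neither past 1.5-fold, and oleic above linoleic acid by 0.18. With arrays centred on their medians, palmitic minus linoleic acid was past 1.5-fold at 0.59. Relative to Cd80, Cd86 shifted by 1.04 between the control and palmitic acid arrays and by -0.04 between control and oleic acid. Between control and linoleic acid the shift was 0.32.

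Among the checkpoint ligands, Cd274 was highest with palmitic acid. Its values were 13.09 in the control, 13.47 with palmitic, 13.16 with oleic and 13.21 with linoleic acid. The palmitic acid difference was 0.38, with a robust SD of 0.11 among genes of that brightness. Palmitic acid lay above oleic acid by 0.31 and above linoleic acid by 0.25. Differences of genes this bright were small in general. Cd274 and Icosl, both B7 family ligands, diverged by 1.70 between the control and palmitic acid arrays and by 0.04 between control and oleic acid. Cd276 had values of 9.69, 9.54, 9.76 and 9.62 in the control, palmitic, oleic and linoleic acid arrays. Its range of 0.22 was exceeded by 50.4% of kept genes. Pdcd1lg2, the dim gene, had a range of 0.14.

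The TNF superfamily ligands differed from each other in how much they varied. Tnfsf4 had values of 7.82 in the control, 7.36 with palmitic, 8.30 with oleic and 7.43 with linoleic acid. The oleic acid array stood above the control by 0.48 (1.39-fold), while palmitic acid stood at -0.46 (1.37-fold lower) and linoleic acid at -0.39 (1.31-fold lower). Palmitic minus oleic acid was -0.94 (1.91-fold), with 41 kept genes lower, and oleic minus linoleic acid was 0.87 (1.82-fold), with 11 kept genes higher. Palmitic and linoleic acid were close, at -0.07. Only 16 kept genes (0.143%) were at least 1.5-fold higher with oleic acid than with both of the other fatty acids, and Tnfsf4 was the only kept costimulation and checkpoint gene among them. Its values lay near the filter level of 7.09. Tnfsf9 had values of 10.96, 10.92, 10.84 and 10.96 in the control, palmitic, oleic and linoleic acid arrays, and 81.7% of kept genes had a wider range.

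Cd40 and Havcr2 code for receptors on the macrophage itself. Cd40 had values of 13.47 in the control, 13.18 with palmitic, 13.46 with oleic and 13.49 with linoleic acid. Palmitic acid was the low array, by -0.29 against the control (1.22-fold), -0.28 against oleic acid and -0.31 against linoleic acid. The robust SD among genes of like brightness was 0.11 for palmitic acid minus control. Havcr2 had values of 7.97 in the control, 8.04 with palmitic, 8.19 with oleic and 7.57 with linoleic acid. Here linoleic acid was the low array, with -0.40 against the control (1.32-fold lower) and 26 kept genes lower still. Oleic minus linoleic acid was 0.63 (1.54-fold) and palmitic minus linoleic acid 0.47 (1.38-fold). Palmitic and oleic acid lay above the control by 0.07 and 0.22. The Havcr2 values, like those of Tnfsf4, lay near the filter level of 7.09.

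**Figure D2:**
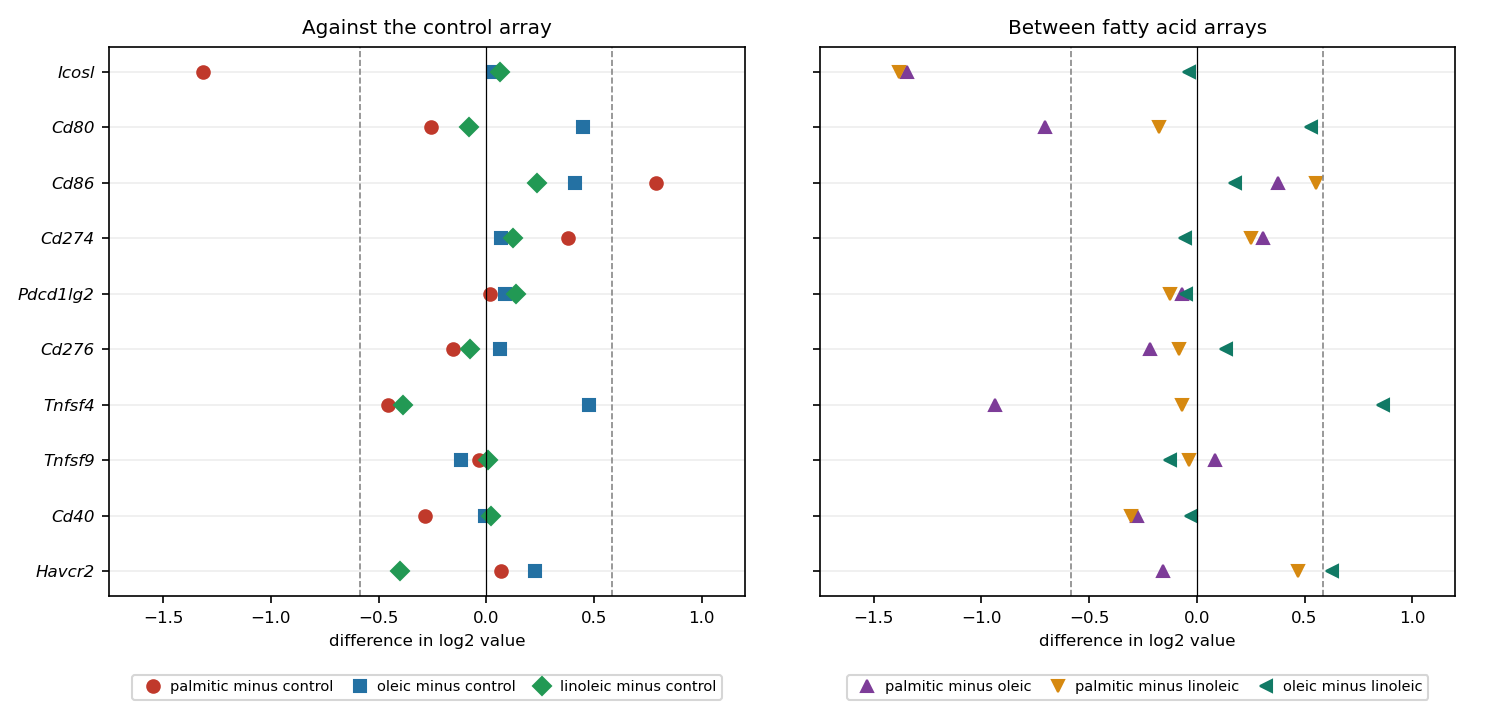
Differences in log2 value (horizontal axis) of the 10 genes (rows), against the control array on the left and between fatty acid arrays on the right; each symbol is a difference of 2 arrays and dashed lines mark 1.5-fold. Icosl at -1.32 and Cd86 at 0.79 are past the line with palmitic acid, and Tnfsf4 is past it in both comparisons of oleic acid with another fatty acid.

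With palmitic acid 1 of the 9 kept costimulation and checkpoint genes was at least 1.5-fold higher than the control, Cd86, and 1 at least 1.5-fold lower, Icosl. Over all kept genes 3.57% were past 1.5-fold either way in this comparison, 2.17% higher and 1.41% lower. The rule used this contrast, so nothing is read from the count. The median of the 9 genes was -0.16 beside 0.0006 over all kept genes. With oleic acid 0 of 9 were past 1.5-fold, beside 0.716% of all kept genes (0.376% higher and 0.34% lower), and the median was 0.07 beside 0.01. The 9 genes split into 7 above the control and 2 below, or 8 and 1 with arrays centred on their medians. Of all kept genes 55.3% were above the control as deposited and 62.9% with centring. With linoleic acid 0 of 9 were past 1.5-fold, beside 0.0716% of all kept genes (0.0358% higher and 0.0358% lower), and the median was 0.0058 beside 0.04. The split was 5 above and 4 below, 3 and 6 with arrays centred on their medians, and 4 and 5 after repeated quantile normalisation. Of all kept genes 65.2%, 52.4% and 48.8% were above the control in the same order. The 4 genes at least 1.5-fold higher and 4 lower among all kept genes likewise became 2 and 7 with centring and 2 and 9 after quantile normalisation.

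The fatty acids were compared with each other at the same concentration and time, in 3 pairs that each rest on 2 arrays and allow no interval. Palmitic acid, which is saturated, lay at least 1.5-fold below the monounsaturated oleic acid at 3 of 9 genes, Icosl, Cd80 and Tnfsf4, and above it at 0. Over all kept genes 3.47% were past 1.5-fold either way, 1.82% higher and 1.66% lower, and these 203 and 185 genes became 162 and 219 after repeated quantile normalisation. Against the polyunsaturated linoleic acid 1 of 9 was lower, Icosl, and 0 higher, beside 3.6% of all kept genes past 1.5-fold, 1.58% higher and 2.01% lower, and these 177 and 225 genes became 212 and 187 with arrays centred on their medians. Linoleic acid carries 1 double bond more than oleic acid on a chain of equal length. Oleic acid was at least 1.5-fold higher at 2 of 9 genes, Tnfsf4 and Havcr2, and lower at 0. The background there was 1.05% past 1.5-fold, 0.34% higher and 0.707% lower. Its 38 higher and 79 lower genes became 55 and 60 with arrays centred on their medians and 56 and 57 after repeated quantile normalisation. The medians of the 9 genes were -0.22, -0.07 and 0.14 in these 3 pairs, beside -0.02, -0.03 and -0.02 over all kept genes. The last of these background medians turned to 0.04 with centring and 0.03 after repeated quantile normalisation. That of palmitic minus linoleic acid turned to 0.01 with centring. Each of these counts is of 3 genes or fewer from a list of 9.

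The palmitic acid array held the lowest value of 5 of the 9 kept genes, Icosl, Cd80, Cd276, Tnfsf4 and Cd40, and the highest of 2, Cd86 and Cd274. Over all kept genes it held the lowest value of 38.1% and the highest of 30.5%. The oleic acid array held the highest value of 4 of the 9, Cd80, Cd276, Tnfsf4 and Havcr2, beside 26.9% of all kept genes. With arrays centred on their medians Icosl and Cd40 joined, making 6 of 9 beside 35.6%, and after repeated quantile normalisation Icosl joined, making 5 of 9 beside 34.9%. The palmitic acid count of 5 lowest was the same under both, beside 33.8% and 42.6%.

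**Figure D3:**
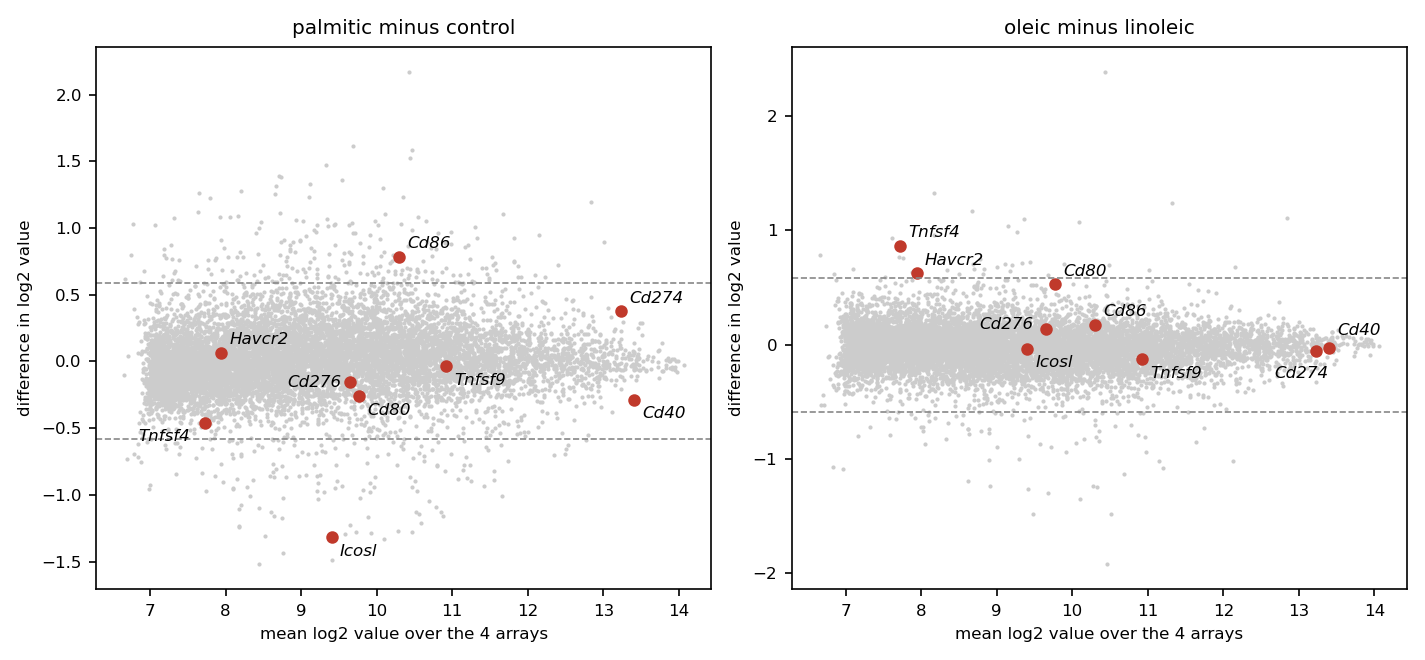
Difference in log2 value (vertical axis) against the mean log2 value over the 4 arrays (horizontal axis) for all 11174 kept genes (grey points), with the 9 kept costimulation and checkpoint genes in red and dashed lines at 1.5-fold. On the left (palmitic acid minus control) Icosl and Cd86 are past the lines, and on the right (oleic minus linoleic acid) Tnfsf4 and Havcr2 are.

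Genes of most like pattern were sought for the 5 genes that ranged by 1.5-fold or more, as those with the smallest Euclidean distance between the 4 values centred on each gene's mean. With 4 arrays and 10565 candidate genes, close matches are easy to find, and they describe these arrays only. The nearest to Icosl were Tagap (distance 0.11), Samsn1 (0.12), Gpr18 (0.14), Rasgrp1 (0.14) and P2ry13 (0.17). With palmitic acid these lay at -1.21, -1.16, -1.44, -1.14 and -1.13 against the control, and with oleic acid all 5 were between -0.01 and 0.18. The nearest to Cd80 were Stat4, Ccnd1, Slc30a4, Sting1 and Cd151, at distances of 0.08 to 0.12. Those nearest to Cd86 were Arhgap25, Tbc1d25, Snx30, Tnfrsf12a and Tbc1d9, at 0.06 to 0.10. Tnfsf4 had looser matches at 0.11 to 0.23, Zbed3, Odc1, Bin2, Gpr65 and Stat4, the last of which was also nearest to Cd80. Havcr2 lay nearest to Ifna14, Armcx2, Car6, Paip2 and Gpat3, at 0.15 to 0.16.

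**Figure D4:**
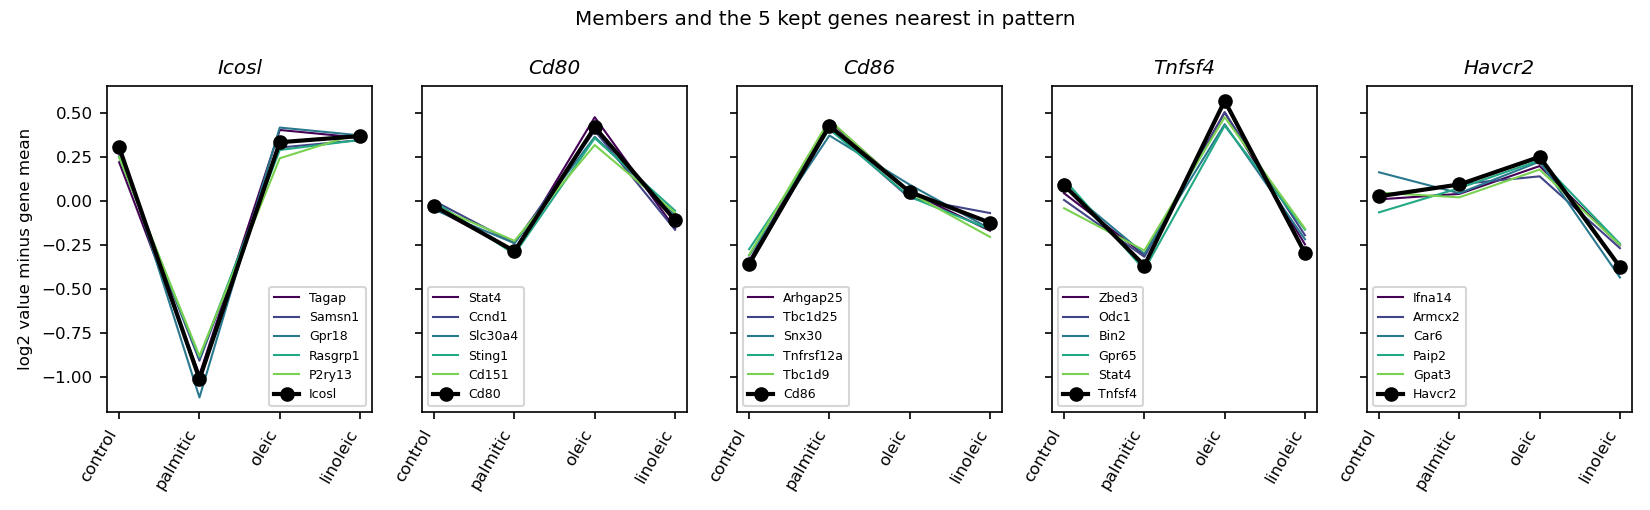
Log2 value minus the gene's own mean (vertical axis) in the 4 arrays (horizontal axis) for 5 costimulation and checkpoint genes (black, points) and the 5 kept genes nearest in pattern to each (coloured lines, which only join the values of a gene). The Icosl panel shows the low palmitic acid value shared by Tagap, Samsn1, Gpr18, Rasgrp1 and P2ry13.

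Other genes of the same pathways were described from 6 lists of 82 genes, of which 76 were measured and 55 kept. Of the 12 kept genes among 18 other B7, butyrophilin and coinhibitory ligands and their partners, palmitic acid put 1 above the control and 1 below it by 1.5-fold or more, beside the 2.17% and 1.41% of all kept genes given above. The higher was Cd200r1, the receptor through which CD200 restrains myeloid cells, with values of 8.23 in the control, 8.95 with palmitic, 8.44 with oleic and 8.35 with linoleic acid. The lower was Nectin2, a ligand of DNAM-1 and TIGIT, with 8.83, 8.25, 8.83 and 8.86. Its difference from the control of -0.586 was barely past the 1.5-fold size, and at -0.577 with arrays centred on their medians it was short of it. The arrays stood in the same order for Cd200r1 as for Cd86, and Nectin2, like Icosl, had its low value with palmitic acid. Tnfrsf14, which codes for the BTLA ligand HVEM, was at least 1.5-fold lower with palmitic than with linoleic acid (-0.72), and Cd200r1 was higher (0.60). Nectin2 stood at -0.61 in that comparison, and at -0.57, short of 1.5-fold, with centring. The list medians were -0.09, 0.04 and 0.03 against the control with palmitic, oleic and linoleic acid.

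Of 8 other TNF superfamily ligands 3 were kept, and 0 were past 1.5-fold against the control. Tnfsf15, the ligand of DR3, was 0.595 higher with palmitic than with oleic acid, barely past 1.5-fold and short of it with centring (0.584) and after repeated quantile normalisation (0.572), with values of 12.84, 13.05, 12.46 and 12.81 in the control, palmitic, oleic and linoleic acid arrays. The 11 measured antigen presentation genes, MHC class II genes and Tap1 among them, were all kept. H2-K1, H2-D1 and H2-DMb1 had no probe of exactly 1 gene. None of the 11 was past 1.5-fold in any of the 6 comparisons, and their differences from the control lay between -0.18 and 0.11 with palmitic acid. They lay between -0.10 and 0.15 with oleic acid, and between -0.07 and 0.34 (Nlrc5) with linoleic acid. The medians of these 11 genes were -0.0039, 0.05 and 0.10 with palmitic, oleic and linoleic acid. Of the 13 kept genes of CD40 and NF-kB signalling 0 were past 1.5-fold in any comparison. With linoleic acid all 13 were above the control as deposited, 11 with arrays centred on their medians and 12 after repeated quantile normalisation, and the median was 0.12 beside 0.04 over all kept genes. Of all kept genes 65.2%, 52.4% and 48.8% were above the control under these 3 scalings, and of the 12 kept interferon and STAT regulators 11 were, under each of them. Of those 12 regulators 1 was past 1.5-fold in any comparison, Socs1, an inhibitor of cytokine signalling, which was lower with palmitic than with linoleic acid by a difference of -0.84. Its values were 10.08, 9.56, 10.10 and 10.40 in the control, palmitic, oleic and linoleic acid arrays.

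**Figure D5:**
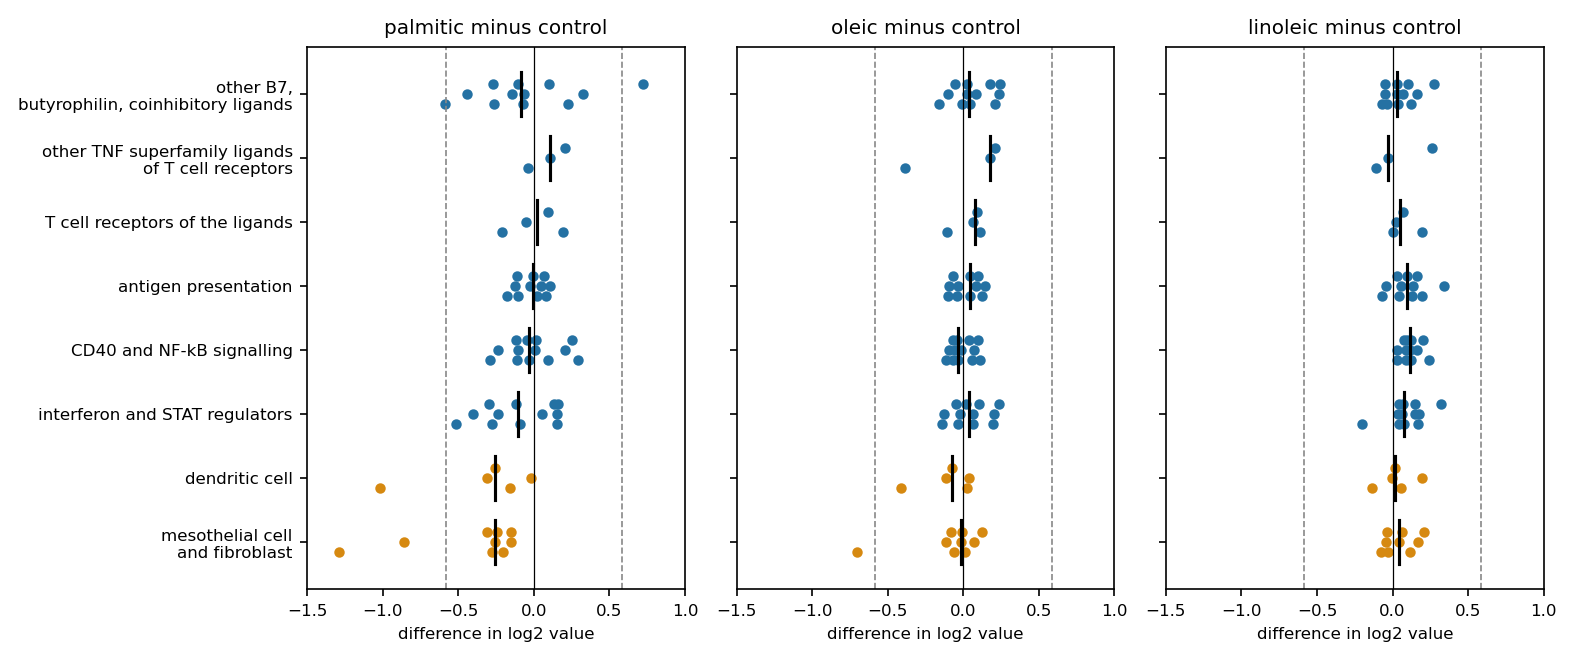
Differences from the control in log2 value (horizontal axis) of kept genes (points) of 6 pathway lists (blue) and of 2 lists of markers of other cells (orange), for palmitic, oleic and linoleic acid; black bars are list medians and dashed lines mark 1.5-fold. The antigen presentation genes lie between -0.18 and 0.11 with palmitic acid and between -0.07 and 0.34 with linoleic acid. All 5 kept dendritic cell markers and all 9 kept mesothelial and fibroblast markers lie below 0 with palmitic acid. Of all kept genes 49.9% do.

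The T cell side of these pairs was dim. Of 14 genes of the T cell partners, receptors and the ligand of CD40, 4 were kept, and Icos (6.48 in the control), Ctla4 (5.85), Pdcd1 (6.86) and Cd40lg (5.06) were not. Cd28, with 6.91 in the control, passed the filter through its values of 7.10 with palmitic and 7.11 with linoleic acid. None of the 4 kept genes was past 1.5-fold in any comparison. Of 8 measured T cell markers 1 was kept, and of 9 measured B cell markers 2, with list means of log2 6.48 in the control for both. Of 10 mast cell and eosinophil markers 2 were kept, and of 10 neutrophil markers 1. The 9 measured macrophage markers were all kept, with list means of 12.54 in the control, 12.46 with palmitic, 12.68 with oleic and 12.58 with linoleic acid. Among them Fcgr1, a high-affinity IgG receptor, had values of 10.69, 10.03, 11.34 and 10.86 in that order. It was past 1.5-fold with palmitic (-0.66) and with oleic acid (0.65) against the control, and palmitic minus oleic acid was -1.31. The other 8 macrophage markers were short of 1.5-fold in every comparison.

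Markers of 2 other cell types, dendritic cells and mesothelial cells with fibroblasts, were mostly low in the palmitic acid array. Of all kept genes 49.9% were below the control with palmitic acid as deposited, 48.0% with centring and 57.9% after repeated quantile normalisation. Of the 9 macrophage markers 6 were below the control as well, with a list median of -0.08. The few kept markers of mast cells and eosinophils, Kit (-0.45) and Siglecf (-0.10), and of neutrophils, S100a8 (-0.20), were below the control too. Kit was at least 1.5-fold lower with palmitic (-0.79) and with oleic acid (-0.80) than with linoleic acid, and under the filter level in both. The kept T cell marker Cd3e stood at 0.06 against the control with palmitic acid, and the kept B cell markers Cd22 and Cd79b at 0.19 and -0.12. All 5 kept of 10 dendritic cell markers were below the control with palmitic acid, with a median of -0.26, from Fscn1 at -1.02 to Itgax at -0.02. That median was -0.03 over all 10 markers and -0.52 over the 2 that passed a stricter filter at the 75th percentile. Flt3, Xcr1, Clec9a, Cd209a and Dpp4 were under the filter level in every array. The mean log2 value over the 10 was 7.62 in the control, 7.45 with palmitic, 7.62 with oleic and 7.68 with linoleic acid. All 9 kept of 11 mesothelial and fibroblast markers were below the control with palmitic acid as well, with a median of -0.26. They ran from Pdgfrb at -1.29, close to Icosl at -1.32, to Msln at -0.15. Of the 9, only Pdgfrb and Pdgfra (-0.86) were past 1.5-fold, and both remained so under the 2 other scalings. With oleic acid the 9 were mixed in sign, with a median of -0.01 and Pdgfrb at -0.71. Both lists kept their palmitic acid signs under the 2 other scalings. The mean over the 11 was 8.50 in the control, 8.15 with palmitic, 8.43 with oleic and 8.54 with linoleic acid. The part of these cells in the Icosl, Cd86 and other differences was not tested. In RNA of a whole culture, fewer cells of a type and less RNA per cell cannot be told apart.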

How the data were processed

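Per the labels' protocols, total RNA with an RNA integrity number above 8.0 was pooled from 3 samples a group, and 100 ng was labelled for 1 array. The values deposited by the authors are log2 values made with RMA, per the submitters' processing notes; the log2 scale was read from their range. Not given in the sources used here are its version, level of summary and the genome build. Of 35556 probes 21789 have exactly 1 gene in the platform annotation, and probes of a gene were averaged. The Entrez IDs of all 10 genes matched RefSeq symbols (GRCm38.p6).

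Differences of log2 values were taken for 6 comparisons and counted past 1.5-fold among genes whose highest value reached log2 7.09. With 1 array a group no test was possible, and the number of arrays limits the precision. The counting step was run on simulated data with normal noise of SD 0.11, the robust SD of linoleic acid minus control. That is the smallest spread of the 6 comparisons and largely fixed the outcome, so the run checks the counting step only. Alternatives were 2 other scalings, 3 other filters, the brightest probe, a floor and 2 other thresholds. Named were the 10 genes, pathway genes past 1.5-fold in any comparison, 5 genes of the T cell side, and the 5 genes nearest in pattern to each gene that ranged by 1.5-fold. The members and lists were chosen with earlier results of these data known. Markers with a value of their own, the promoter motifs and the pairs of genes set against each other were chosen after the values were seen. Python 3.11.15, pandas 2.3.3 and NumPy 2.4.6 were used.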

Additional observations from a re-analysis of the deposited data

How the results depend on the processing

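Differences of the 10 genes were recomputed under 7 alternatives to scaling, filter, probe choice and floor. Of 408 such values 403 moved by less than 0.11, the robust SD of linoleic acid minus control over kept genes. That count was mostly fixed in advance and says little about robustness. The 3 filters change no value, the brightest probe can alter Cd80 alone, and the floor can alter Pdcd1lg2 alone. Of the 8 differences past 1.5-fold 0 changed sign. Over these alternatives 4 of 56 such values no longer counted: Cd80 in palmitic minus oleic acid at its brightest probe, and Tnfsf4 (in both its comparisons) and Havcr2 under the stricter filter. At the brightest probe Cd80 moved to 0.32 for oleic acid minus control, -0.50 for palmitic minus oleic acid and -0.0031 for palmitic minus linoleic acid. Counts past the threshold moved by over 1.5 times as follows. With 2-fold they were 1 for palmitic acid minus control, 1 for palmitic minus oleic acid and 0 for oleic minus linoleic acid. Of all kept genes 0.689%, 0.555% and 0.224% were past 2-fold there. With 1.3-fold the counts were 3 for oleic acid minus control, 2 for linoleic acid minus control and 3 for palmitic minus linoleic acid. The shares of all kept genes past 1.3-fold were 2.45%, 0.788% and 9.32%. Centring gave 2 for palmitic minus linoleic acid, beside 3.57% of all kept genes. The stricter filter gave 0 for oleic minus linoleic acid, beside 1.41% of the genes it kept. Over all kept genes, 2-fold left at most 0.734% in a comparison and 1.3-fold at most 11.5%, and linoleic acid minus control went from 4 higher and 4 lower to 20 and 9 without a filter and 3 and 1 with the stricter one. Medians of the lists of other genes were recomputed as well, an alternative chosen after seeing the data. The scalings were also applied to the calls of other genes, to the array with the extreme value and to signs, likewise after seeing the data. No paired analysis was possible because each group is 1 array, and no replicate could be left out.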

Other observations

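Several of these genes lie beside a relative on the chromosome, as the order of protein-coding genes in the RefSeq table (GRCm38.p6) shows. Cd274 is followed directly by Pdcd1lg2. The former was bright and higher with palmitic acid by 0.38, and the latter was under the filter level in every array, with a difference of 0.01. Tnfsf4 is followed by Tnfsf18, which codes for the ligand of GITR and was under the filter level in every array, at log2 5.02 in the control and 5.22 with oleic acid. Tnfsf9 is followed by Cd70, the ligand of CD27, also under the filter level, at 6.79 in the control and 6.96 with oleic acid.

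Beyond the listed ligands, Vsir, which codes for the B7 relative VISTA, had values of 11.21 in the control, 11.44 with palmitic, 11.46 with oleic and 11.17 with linoleic acid. Icam1, the adhesion partner of LFA-1, had values of 13.04, 12.78, 12.94 and 13.08 in the same order, with palmitic acid the low array as for Cd40. Both were named after their values were seen, and neither was past 1.5-fold.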
